A study of Mus musculus with 4 samples.

Results

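Pax7, Pax3 and Myf5 are 3 of the 32285 genes counted in the deposited matrices, and were taken by symbol as the regulators most used to recognise muscle stem cells. They were described in 5481 cells that had a barcode in all 4 files, at least 1000 detected genes and under 10% of counts from mitochondrial genes. The cells were mouse muscle stem cells of MyoD-KI genotype, in which the fluorescent protein tdTomato reports MyoD, the product of Myod1. They had been cultured for 5 days in serum-containing growth medium, and a flow cytometer then collected the MyoD-tdTomato high population for 10x Genomics 3-prime single-cell RNA-seq. Every file carries this 1 group label. The low population was not analysed here, animal age and number are not given in the sources used here, and no group without the knock-in was compared.

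Pax7 and Pax3 are paired-box transcription factors. Pax7 marks satellite cells, the stem cells of adult skeletal muscle, and is needed to maintain them, while Pax3 specifies muscle progenitors in the embryo and persists in satellite cells of only some adult muscles. Myf5 is a basic helix-loop-helix factor of the same family as Myod1, Myog and Myf6, and is a known target of both Pax proteins. In the textbook order of adult myogenesis, cells express Pax7 and Myf5 first, then Myod1, and Pax7 and Myf5 decline as Myog comes on and the cells leave the cell cycle. Myf6, also called Mrf4, is the neighbour of Myf5 and is strongest in mature fibres.

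By the GENCODE annotation of GRCm38, Pax7 (ENSMUSG00000028736) lies on the minus strand at chr4:139737062-139833528 and Pax3 (ENSMUSG00000004872) on the minus strand at chr1:78101267-78197134. Both are long, and introns make up 93.9% and 93.5% of them. Myf5 (ENSMUSG00000000435) is compact, on the minus strand at chr10:107482908-107486134, with 35.5% intron. No other annotated gene overlaps any of the 3. Myf6 ends 6718 bases upstream of Myf5 on the same strand, so both genes are read in the same direction.

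2 sequences bear on how the counts can be read. The first is the longest identical stretch between the coding sequences of Pax7 and Pax3 in the GENCODE transcripts, shown because related genes can share reads. It is 26 bases long and ends 5133 bases before the end of the longest Pax7 transcript, far from the 3-prime end that the assay reads.
Pax7 and Pax3 shared run: ctggaagtgtccacccctcttggcca
None of the 5858 stretches of 31 bases in Pax7 transcripts occurs in a Pax3 transcript, and the same was true of Myf5 against Myod1, Myog and Myf6. The second sequence is the 250 bases upstream of Myf5 (RefSeq start, GRCm38.p6, minus strand, chr10:107486135-107486384), shown because it is the end of the interval between Myf6 and Myf5, whose transcripts are compared in differentiated cells below.
Myf5 upstream window: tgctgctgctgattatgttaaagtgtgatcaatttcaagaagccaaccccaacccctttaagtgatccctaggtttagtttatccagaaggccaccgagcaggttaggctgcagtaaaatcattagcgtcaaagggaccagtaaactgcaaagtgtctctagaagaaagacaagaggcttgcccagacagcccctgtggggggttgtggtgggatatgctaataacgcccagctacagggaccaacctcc
A search of both strands found no E-box (CANNTG, the motif of basic helix-loop-helix factors) and no TATAAA in this window. Of 27025 promoter windows of the same length, 66.0% held an E-box and 13% held TATAAA. The Myf5 window had 48.8% G or C and 3 CpG, against medians of 52.0% and 6. The window of Pax7 had 65.2% G or C, 13 CpG and 1 GC box (GGGCGG, found in 32.9% of windows). It lies inside the GENCODE span of Pax7 given above, whereas the Myf5 window lies outside that of Myf5. A match or its absence describes the letters only.

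The 4 files, numbered as replicates 1 to 4, held 62627341 to 68898900 unique molecular identifiers (UMIs, each standing for 1 captured transcript) over 5950 to 5974 barcodes. Any pair of them shared 99.9% of barcodes, and a barcode's profiles correlated at a median of 0.794 to 0.801 between files, against 0.665 to 0.669 for different barcodes. They were therefore treated as repeat libraries of the same cells and counted as 1 sample. No test between conditions exists here, so values are means over the 4 files, with 95% intervals that cover counting error in 1 file only. Where detection is given over the files together, as for Myf5 with Myf6 below, the interval is that of the files together. Kept cells had a median of 11049 UMIs per file. Markers of other cell types summed to 1.07 CPM (counts per 1000000 UMIs) over 4 endothelial genes, 0.835 CPM over 5 immune genes and 2.07 CPM over 4 Schwann cell genes, while 5 of 7 fibroblast markers, Pdgfra and Dcn among them, were under 1 CPM. The other fibroblast markers were Col3a1 at 110 CPM and Ly6a at 29.6 CPM, for a list sum of 141 CPM. The 5 pericyte markers summed to 68.2 CPM, with Notch3 at 50.3, Cspg4 at 12.3 and Rgs5 at 5.25 CPM. Col3a1, Ly6a and Notch3 were higher in cells under 500 CPM of Myog (159, 50.8 and 87.5 CPM), where the 3 members were also highest, and the part of such cells in the results was not tested.

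Pax7 transcripts were present at 57.6, 57.0, 57.7 and 56.2 CPM in replicates 1 to 4, a mean of 57.1 (55.3 to 59.0). Myf5 was at 54.5, 54.7, 52.8 and 54.7 CPM, a mean of 54.2 (52.4 to 56.0). Pax3 was at 6.49, 6.41, 6.03 and 6.45 CPM, a mean of 6.34 (5.75 to 6.98). Replicates lay close together because they read the same cells. For scale, Myod1, the gene behind the sort, was at 507 CPM and Myog, which drives differentiation, at 1803 CPM. Of the 9 Pax genes, 7 were under 1 CPM, which leaves Pax7 and Pax3 as the members of the family seen in these cells. Calcr and Cd34, surface markers of quiescent satellite cells, were at 0.261 and 0.253 CPM, while Sdc4 (54.4 CPM), Itga7 (49.7 CPM) and Cdh15 (79.5 CPM), other satellite cell surface genes, were well detected.

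To compare detection at equal depth, every cell was thinned to 5000 UMIs per file, which left 5197 cells. Pax7 was then seen in 20.6%, 20.1%, 21.3% and 20.5% of cells in replicates 1 to 4, with a mean of 20.6% (19.5 to 21.7). Myf5 was seen in 19.6%, 18.7%, 18.7% and 19.9%, a mean of 19.2% (18.2 to 20.3), and Pax3 in 2.89%, 2.83%, 2.48% and 2.81%, a mean of 2.75% (2.32 to 3.23). Most of these cells had a single UMI: 14.5% of cells held exactly 1 Pax7 UMI, 4.41% held 2 and 1.68% held more. Without thinning the shares were 34.6% for Pax7, 33.6% for Myf5 and 5.73% for Pax3. A cell with Pax7 in a given file had Pax7 again in another file in 46.7% of cases, against 43.0% for Myf5 and 24.5% for Pax3, so a zero in a single file is a weak statement about a cell. Over all 4 thinned files, 43.0% of cells had Pax7, 42.5% had Myf5 and 7.79% had Pax3 at least once.

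The levels of all 3 genes were lower the more Myog a cell held. In the 1208 cells with under 50 CPM of Myog, Pax7 was at 117, 117, 116 and 110 CPM in replicates 1 to 4 (mean 115, 110 to 121). In the 643 cells with 5000 CPM of Myog and over it was at 1.73, 2.29, 1.47 and 2.36 CPM (mean 1.96, 1.05 to 3.33). The log2 ratio of the highest to the lowest bin, each computed as CPM + 1, was -5.30 (-5.84 to -4.75). Myf5 went from 103, 98.5, 97.1 and 96.8 CPM (mean 98.9) to 2.45, 2.29, 2.94 and 2.84 CPM (mean 2.63), a log2 ratio of -4.79 (-5.30 to -4.27). Pax3 went from 10.6, 11.5, 10.1 and 10.6 CPM (mean 10.7) to 1.01, 0.430, 0.441 and 0.788 CPM (mean 0.667), a log2 ratio of -2.82 (-3.34 to -2.14), which the added 1 CPM compresses most for this rare gene. No file of a highest bin overlapped any file of the lowest bin, for any of the 3. The cells with the most Myog also show what free RNA could contribute: at 5000 UMIs, 0.729% of them had Pax7, 1.18% had Myf5 and 0.405% had Pax3, at a median depth of 10169 UMIs against 10848 in cells under 500 CPM of Myog, where the shares were 37.3%, 32.5% and 4.45%.

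**Figure D1:**
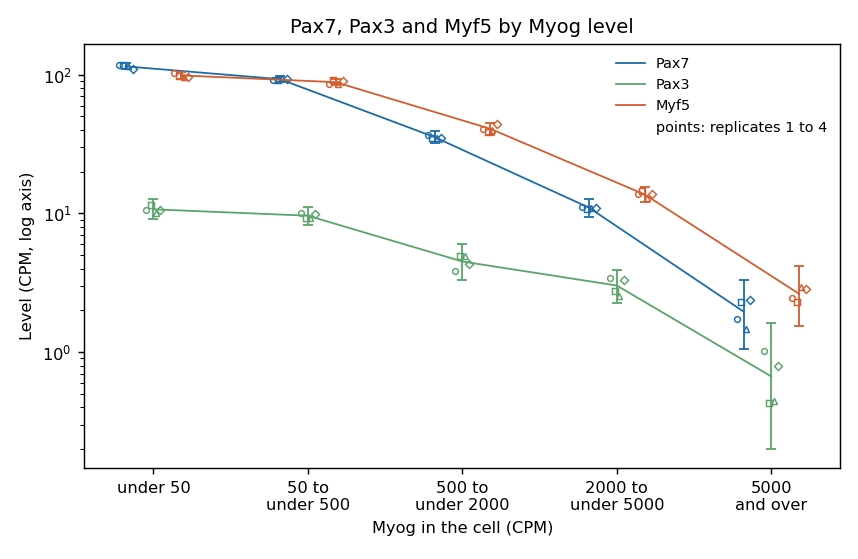
Level of Pax7, Pax3 and Myf5 (CPM, log axis) in 5 bins of the cell's own Myog level. Lines join means over 4 replicate files, bars are 95% counting intervals and open symbols are single files. Pax7 goes from 115 CPM in the first bin through 92.9 CPM in the second to 1.96 CPM in the last.

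Most of the difference lay above 500 CPM of Myog. Between the 2 lowest Myog bins Pax7 differed by a log2 ratio of -0.30 (-0.41 to -0.21), Myf5 by -0.16 (-0.27 to -0.06) and Pax3 by -0.14 (-0.43 to 0.16). From 500 to under 2000 CPM of Myog, Pax7 stood at 35.5 CPM, Myf5 at 40.8 and Pax3 at 4.50, and from 2000 to under 5000 CPM they stood at 11, 13.7 and 3.02. Myod1 ran the other way over the same cells, from 294 CPM in the lowest to 675 CPM in the middle bin. In cells with little proliferation Pax7 was reduced further than Myf5. With Mki67 plus Top2a under 50 CPM, the middle Myog bin held 22.2 CPM of Pax7 against 122 in the lowest bin (log2 ratio -2.41, -2.74 to -2.09) but 44.2 CPM of Myf5 against 114 (log2 ratio -1.35, -1.61 to -1.10). In these 328 cells there were 0.504 Pax7 UMIs per Myf5 UMI (0.387 to 0.654; files 0.404 to 0.677), and 1.07 (0.932 to 1.23) in the lowest bin. A set of 75 of the 328 cells already had 5000 CPM or more of Acta1 plus Myh3, and those held 8.43 CPM of Pax7 with 44.0 of Myf5. The 177 cells under 1000 CPM of Acta1 plus Myh3 held 34.0 CPM of Pax7 (26.2 to 43.5) with 44.4 of Myf5 (35.3 to 54.9), where the intervals overlap.

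Mki67 and Top2a are made from S phase to mitosis, and their sum was used to rank cells by proliferation. Over all cells, Pax7 was at 112 CPM with 1000 CPM or more of the pair and 33.2 CPM with under 50, a log2 ratio of 1.72 (1.60 to 1.84). The same log2 ratio was 0.87 for Myf5 (0.75 to 1.00) and 0.91 for Pax3 (0.57 to 1.24). Myog moves with proliferation, so the bins were repeated in the 2650 cells with under 500 CPM of Myog. There Pax7 was at 111, 109, 117 and 102 CPM (mean 110) with the least Mki67 plus Top2a, 71.6, 77.3, 76.4 and 76.6 CPM (mean 75.5) in the next bin, and 142, 138, 140 and 141 CPM (mean 140) with the most. Pax7 was thus high at both ends and low between them, and files of the 3 bins did not overlap. Myf5 did not follow it: its means were 108, 92.1, 84.1 and 90.3 CPM from the lowest to the highest bin, a log2 ratio of -0.26 between the ends (-0.40 to -0.11), against 0.35 for Pax7 (0.22 to 0.48). Pax3 had means of 12.3, 7.84, 10.1 and 9.74 CPM, with an interval for its end-to-end log2 ratio that spans 0 (-0.31, -0.72 to 0.10).

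**Figure D2:**
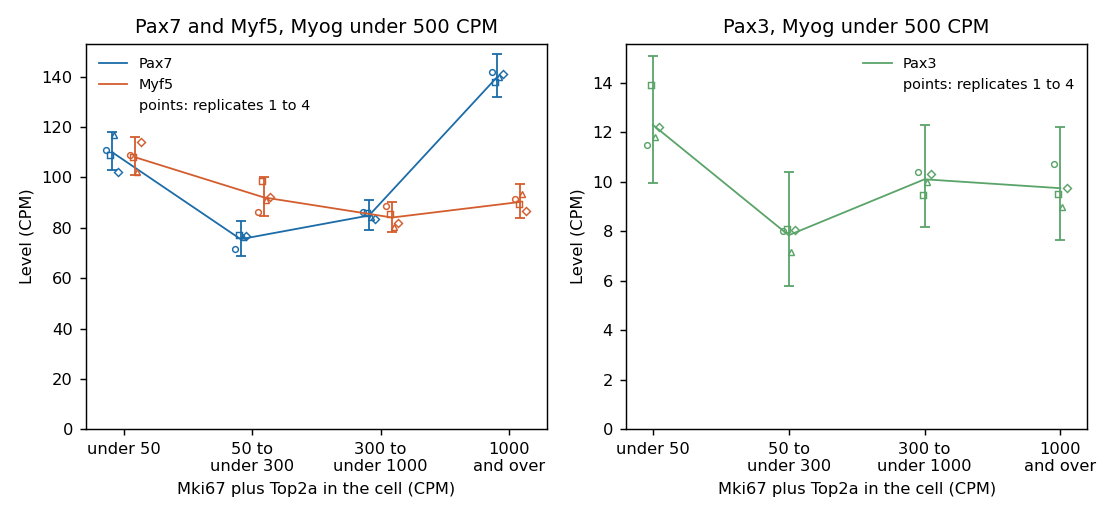
Level of Pax7 and Myf5 (left) and Pax3 (right) in CPM, in 4 bins of Mki67 plus Top2a, within cells under 500 CPM of Myog. Bars are 95% counting intervals and open symbols the 4 files; Pax7 is lowest at 75.5 CPM in the second bin and highest at 140 CPM in the most proliferative cells, where Myf5 is at 90.3 CPM.

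The balance of Pax7 and Myf5 transcripts differed between these bins. Cells under 500 CPM of Myog held 1.55 Pax7 UMIs per Myf5 UMI (1.41 to 1.71; files 1.49 to 1.63) in the most proliferative bin and 1.02 (0.923 to 1.12; files 0.898 to 1.15) in the least. Within the most proliferative cells the ratio was 1.72 (1.50 to 1.98) under 50 CPM of Myog, 1.46 (1.08 to 1.99) from 500 to under 2000 CPM and 2.20 (1.19 to 4.23) from 2000 to under 5000 CPM, with intervals that overlap. How efficiently each transcript is captured is unknown, so only the change of this ratio between bins can be read, not its value.

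Pax7 and Myf5 were found in the same cell more often than their shares alone would give. At 5000 UMIs both were seen in 342 of 5197 cells per file (range 313 to 360), against 206 for unrelated detection, a ratio of 1.66 (1.49 to 1.85). Myf5 was seen in 31.9% of cells with Pax7 (29.1 to 34.8) and 15.9% of cells without (14.8 to 17.1), a difference of 16.0 points (13 to 19.1). The odds ratio was 2.67, 2.28, 2.46 and 2.49 in replicates 1 to 4 (mean 2.48, 2.12 to 2.88). It was nearly the same with the pair read in different files, where 340 cells held both. Levels followed: cells with 0, 1, 2, 3 and 4 or more Myf5 UMIs over the files held 33.0, 74.0, 94.4, 101 and 119 CPM of Pax7, while their median Myog went from 2700 to 55.7 CPM.

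Within cells of like Myog the association was small. The Mantel-Haenszel odds ratio, which pools the odds ratios of strata, was 1.23, 1.09, 1.18 and 1.19 within the 5 Myog bins (mean 1.17, 0.994 to 1.38). It was 2.07 (1.77 to 2.42) within the bins of Mki67 plus Top2a and 1.16 (0.983 to 1.37) within both together. In the cells under 500 CPM of Myog, Myf5 was seen in 34.1% of those with Pax7 and 31.6% of those without, a difference of 2.44 points (-1.44 to 6.36). So in cells with little Myog, any association of Pax7 with Myf5 was within the counting error of 1 file at this depth. The difference was positive in every file (0.865 to 3.40 points), but the files read the same cells. Detection over the files together was not used for this pair, so a weak association is not excluded. Among cells from 2000 to under 5000 CPM of Myog, few cells held either, yet Myf5 was in 13.7% of those with Pax7 and 5.21% of those without, a difference of 8.48 points (0.330 to 20.9) that rests on 7 cells per file with both.

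**Figure D3:**
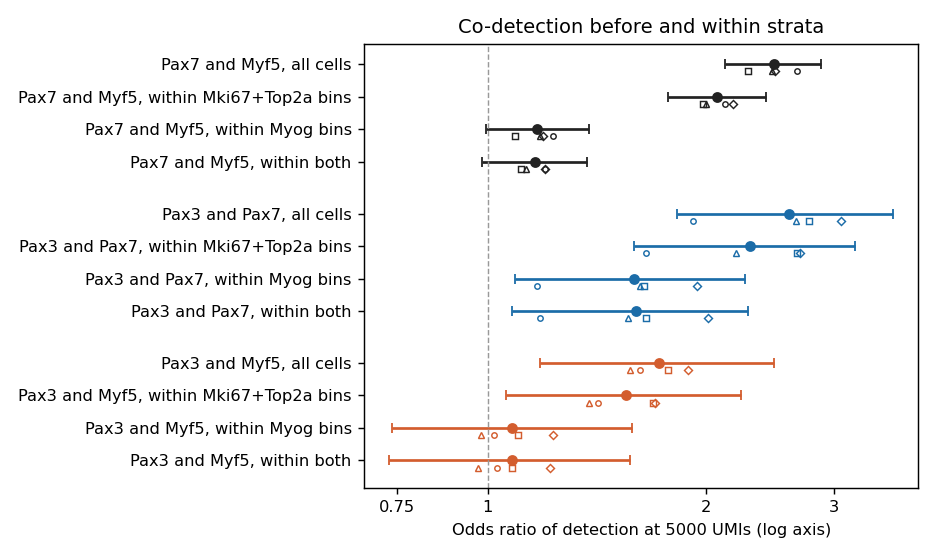
Odds ratio of detection (log axis) for the 3 pairs of genes at 5000 UMIs, over all cells and within strata. Filled points are means with 95% counting intervals, open symbols the 4 files, and the dashed line marks 1; Pax7 with Myf5 goes from 2.48 to 1.17 within Myog bins, and Pax3 with Pax7 from 2.60 to 1.59.

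Pax3 went with Pax7 more than with Myf5. Its odds ratio with Pax7 was 2.60 (1.82 to 3.62) over all cells and 1.60 (1.08 to 2.28) within strata of Myog and Mki67 plus Top2a, with files from 1.18 to 2.01. With Myf5 the values were 1.72 (1.18 to 2.48) and 1.08 (0.732 to 1.57), and the intervals for the pair of stratified values overlap. Only 56.0 cells per file held Pax3 and Pax7 together. Of the 141 cells with 2 or more Pax3 UMIs over the files, 78.7% had under 500 CPM of Myog, against 45.2% of cells with none. They held 104 CPM of Pax7 and 72.0 of Myf5. Their 90.7 CPM of Pax3 is raised by the choice of cells, which was made on the same UMIs.

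Compared with cells lacking Pax3 over the same strata (127 and 3309 cells could be matched), the cells with 2 or more Pax3 UMIs held 138 CPM of Pax7 against 92.3, a log2 ratio of 0.56 (0.24 to 0.87). In this contrast 6.24% of the 10680 genes compared were higher by a log2 ratio of at least 0.5 in the same direction in every file, and 3.40% were lower. Cdh6, a cell adhesion cadherin, was at 41.2 against 15.0 CPM (log2 ratio 1.39, 0.77 to 1.97) and Sox5, a transcription factor, at 64.2 against 23.8 CPM (1.38, 0.88 to 1.84). Cdkn1c, a cyclin-dependent kinase inhibitor linked to cell cycle exit in muscle, was at 48.9 against 18.5 CPM (1.33, 0.77 to 1.85). The lowest log2 ratios were larger in size and included muscle genes. Myh1 was at 18.5 against 119 CPM (-2.64, -3.54 to -1.85) and Cav3 at 6.04 against 26.9 CPM (-2.24, -3.70 to -0.97). Myom2 was at 0.816 against 8.89 CPM (-2.78, -3.66 to -0.53). This contrast was not repeated without cells of 5000 CPM or more of Acta1 plus Myh3. Of 10 reported targets of Pax3 or Pax7, all measured, Dmrt2 alone was higher by this rule, at 13.7 against 6.84 CPM with an interval that spans 0 (0.89, -0.18 to 1.83). Met, another reported target, encodes the receptor for hepatocyte growth factor and did not meet the rule, at 81.3 against 62.3 CPM (0.37, -0.06 to 0.77).

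To find what goes with each gene alone, cells with 2 or more Pax7 UMIs and no Myf5 over the 4 thinned files (Pax7 alone, 462 cells) were set against cells with 2 or more Myf5 UMIs and no Pax7 (Myf5 alone, 387 cells). In the unthinned counts the Pax7 alone cells still held 23.8 CPM of Myf5, and the Myf5 alone cells 23.0 CPM of Pax7, so alone does not mean absence of the other gene. A further 612 cells had 2 or more of each and 2171 had neither, with 5.42 CPM of Pax7 and 5.89 of Myf5. The unthinned counts include the thinned UMIs, in which these classes were required to lack the gene. The choice of cells therefore lowers these 4 values, and how low the gene is in such cells cannot be read from them. The Pax7 alone cells were more often proliferative, with 27.7% at 1000 CPM or more of Mki67 plus Top2a against 8.53% of the Myf5 alone cells, and 82.9% against 68.7% had under 500 CPM of Myog. Levels of other genes were therefore averaged over strata of both measures, which kept 454 and 384 cells.

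Of 7394 genes compared, 519 (7.02%) were higher in Pax7 alone cells and 96 (1.30%) lower, Pax7 and Myf5 themselves counted. Scaling by median ratios, which removes the shift of 0.10 in the median log2 ratio of all genes, gave 282 and 164, so that the share of these genes that was higher went from 84.4% to 63.2%. The 8 highest were Egfr, Mgp, Fam20c, Kif26b, Morrbid, Cdh6, Dock10 and Cdkn1c, by a ranking that changed with the processing, as given in the last section. Mgp, matrix Gla protein, an inhibitor of calcification, was at 1074 CPM (1030 to 1119) against 382 CPM (352 to 414), a log2 ratio of 1.49 with files from 1.40 to 1.55. Egfr, the epidermal growth factor receptor, was at 25.5 against 8.22 CPM (log2 ratio 1.51, 0.65 to 2.38). Cdkn1c was at 40.5 against 15.4 CPM (1.35), but the log2 ratio was 0.42 without cells of 5000 CPM or more of Acta1 plus Myh3 and -0.85 when alone meant at least 3 UMIs.

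The 8 lowest in Pax7 alone cells were Myh8, Tnnc2, Hspb7, Ckm, Sln, Tcap, Cox6a2 and 1700034P13Rik. Among them Hspb7 is a small heat shock protein, Sln, sarcolipin, regulates the calcium pump of the sarcoplasmic reticulum, and Tcap, telethonin, is a protein of the Z-disc. Tnnc2, fast skeletal troponin C, was at 56.2 CPM in Pax7 alone and 159 CPM in Myf5 alone cells, a log2 ratio of -1.48 (-1.81 to -1.16), and -1.04 without cells of 5000 CPM or more of Acta1 plus Myh3. Without those cells Myh8, perinatal myosin heavy chain, went from -1.50 to 0.96, Ckm, muscle creatine kinase, from -1.35 to -0.02, and Cox6a2, a muscle subunit of cytochrome c oxidase, from -1.21 to -0.10. Those cells were left out of both classes at once. Hspb7 (-1.52), Sln (-1.52) and Tcap (-1.16) kept their direction without them.

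**Figure D4:**
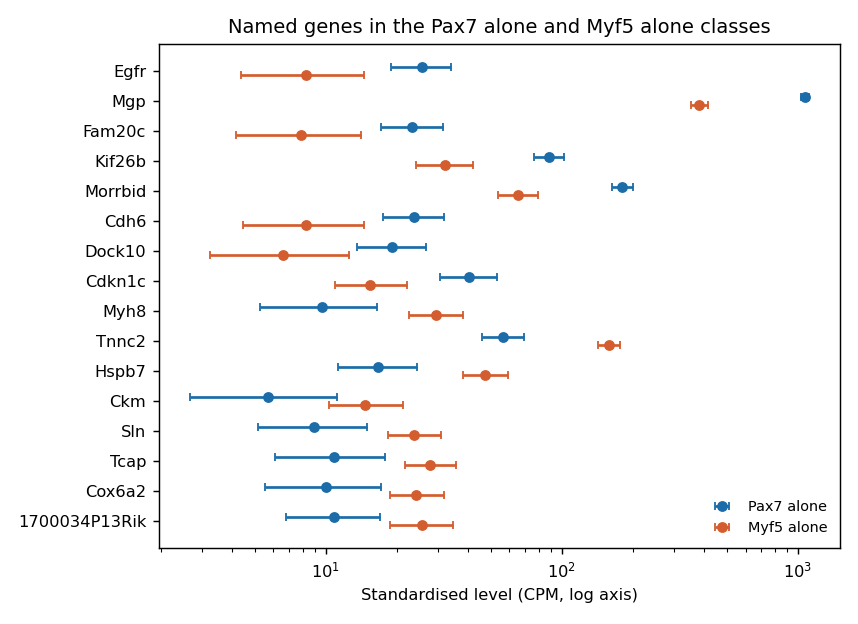
Standardised level (CPM, log axis) of the 8 highest and 8 lowest genes in cells with Pax7 alone and with Myf5 alone, with 95% counting intervals. Mgp stands apart by its level, 1074 against 382 CPM, and the 8 lowest genes lie further right in the Myf5 alone class, of which Myh8 changes direction without cells of 5000 CPM or more of Acta1 plus Myh3.

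In a list of 20 satellite cell genes, 4 of 13 measured were higher with Pax7 alone and none lower, where 7.02% of all genes were higher and 1.30% lower: Notch3 at 97.1 against 48.2 CPM (log2 ratio 1.00, 0.61 to 1.39), the proteoglycan Sdc4 at 85.1 against 51.6 (0.71, 0.33 to 1.09), the engulfment receptor Megf10 at 209 against 144 (0.54, 0.31 to 0.77) and Notch1 at 19.0 against 10.7 (0.78, -0.03 to 1.60). The list's median log2 ratio was 0.30, against 0.10 for all genes. Notch3 also stands in the list of pericyte markers, given above with its values. In a list of 14 bHLH and E-box repressors, 3 of 8 measured were higher: the Notch effector Heyl at 27.9 against 12.7 CPM (1.10, 0.37 to 1.85), Hes1, also a Notch effector, at 82.0 against 55.1 (0.57, 0.19 to 0.95), and Snai2 at 38.9 against 25.2 (0.62, 0.07 to 1.18). Megf10 and Hes1 passed the limit of 0.5 by less than the 0.10 by which the median of all genes was shifted. None of 7 measured reported Pax targets, 8 partners and upstream factors, or 11 positional genes such as the Hox genes met the rule in either direction, and with 7.02% of all genes higher a count of 0 in so short a list does not stand apart.

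Against cells with neither gene, more genes went with Pax7 than with Myf5, a difference that was not tested. For Pax7 alone, 1045 of 9387 genes (11.1%) were higher and 104 (1.11%) lower; for Myf5 alone, 166 of 9079 (1.83%) were higher and 110 (1.21%) lower. The last count was 169 without replicate 3 and 207 without replicate 4, where the same direction is asked of fewer files and the classes are redrawn. Scaling by median ratios gave 591 and 264 for Pax7 alone, so that the share higher went from 90.9% to 69.1%. The contrasts share the cells with neither gene. Grin2a, a subunit of the NMDA glutamate receptor, led both lists, at 19.4 against 4.26 CPM with Pax7 alone and 19.1 against 5.27 CPM with Myf5 alone. Met was at 67.0 against 41.4 CPM with Pax7 alone (log2 ratio 0.69, 0.28 to 1.10) and Itm2a at 157 against 108 CPM (0.53, 0.28 to 0.79), 2 of the 3 of 8 measured reported targets that were higher; the third was Spry1 (0.69, -0.22 to 1.56). With Myf5 alone none of 8 was, where only 1.83% of all genes were, and Met stood at 0.42 (0.02 to 0.83) and Itm2a at 0.36 (0.14 to 0.59), with intervals that overlap those for Pax7 alone. In the Pax7 alone contrast Itm2a passed the limit of 0.5 by less than 0.10, the shift in the median of all genes there. Myf6 was at 19.4 against 5.98 CPM with Myf5 alone (1.55, 0.78 to 2.25) and at 2.12 against 3.80 CPM with Pax7 alone (-0.61, -1.99 to 0.87). Casq1, calsequestrin, was at 11.5 against 3.19 CPM with Myf5 alone, and the muscle genes Xirp2, Fabp3, Cmya5 and Myot were also among its 8 highest; without cells of 5000 CPM or more of Acta1 plus Myh3 the log2 ratio of Xirp2 was 0.04, that of Casq1 0.82 and that of Myf6 1.17.

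The genes that went with Pax7 were long. Those higher in Pax7 alone than Myf5 alone cells had a median span of 83.4 kb, against 28.3 kb for all genes compared and 14.8 kb for those lower. The median was 90.3 kb for genes higher than in cells with neither, and 63.6 kb for those higher with Myf5 alone, against 26.9 and 26.8 kb. Malat1, a transcript that stays in the nucleus, was at 8754 CPM in Pax7 alone and 7777 CPM in Myf5 alone cells. It was at 8733 CPM in cells with neither, close to Pax7 alone, and at 9354 CPM in cells with both. These Malat1 levels were not averaged over strata. With the strata also split by Malat1, 356 genes were higher and 116 lower in Pax7 alone than Myf5 alone cells, and 553 were higher with Pax7 alone than with neither. Whether introns were counted is not given in the sources used here, and the part of nuclear RNA in these lists was not tested.

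Malat1 itself separated Myf5 from Pax7 and Pax3, whose own intervals overlap. In the 467 kept cells with under 1000 CPM of Malat1, Pax7 was at 23.9, 24.8, 28.0 and 29.2 CPM (mean 26.5), against 59.9, 59.3, 59.8 and 58.1 (mean 59.3) in the others, a log2 ratio of -1.14 (-1.41 to -0.88). Pax3 was at 1.52 against 6.68 CPM, a log2 ratio of -1.65 (-2.33 to -0.90). Myf5 was at 50.6 against 54.4 CPM, a log2 ratio of -0.11 with an interval that spans 0 (-0.31 to 0.08). Within cells under 500 CPM of Myog the log2 ratios were -1.50 for Pax7, -1.98 for Pax3 and -0.50 for Myf5. The intervals for Pax7 (-1.79 to -1.22) and Myf5 (-0.72 to -0.29) do not overlap.

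Myf5 was higher again in the cells with the most sarcomere transcripts, which was not seen for Pax7. Pax3 was too rare in those cells to tell. Cells were also binned by the sum of Acta1, skeletal alpha-actin, and Myh3, embryonic myosin heavy chain, which mark differentiating muscle; these bins were chosen after the data were seen. Myf5 went from 88.3 CPM in the lowest bin to 11 CPM from 5000 to under 20000 CPM, then stood at 30.4, 32.7, 32.7 and 45.5 CPM (mean 35.4, 25 to 47.9) in the 82 cells with 20000 CPM or more. The log2 ratio of the last bin to the one before was 1.58 (1.05 to 2.07). Pax7 was at 6.93 and 5.10 CPM in the same 2 bins (-0.58, -1.72 to 0.47) and Pax3 at 1.22 and 0.436 CPM. Myf6 was at 15.2 and 90.6 CPM, a log2 ratio of 2.49 (2.14 to 2.83), and Myod1 at 534 and 347 CPM. The files of the last 2 Myf5 bins did not overlap, although 5 cells held 37.0% of its 46 thinned UMIs in the last bin. Myog was also lower in the last bin, at 3069 against 4249 CPM. Within that bin Myf5 was at 46.0 CPM in 21 cells from 500 to under 2000 CPM of Myog, 34.7 CPM in 49 cells from 2000 to under 5000 and 6.33 CPM in 11 cells above. Among all cells from 500 to under 2000 CPM of Myog, Myf5 hardly varied with Acta1 plus Myh3, at 40.0 CPM under 1000, 43.3 from 1000 to under 5000 and 41.1 from 5000, while Pax7 was at 42.0, 26.5 and 21.6 CPM. How much of the higher Myf5 goes with lower Myog was not tested.

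**Figure D5:**
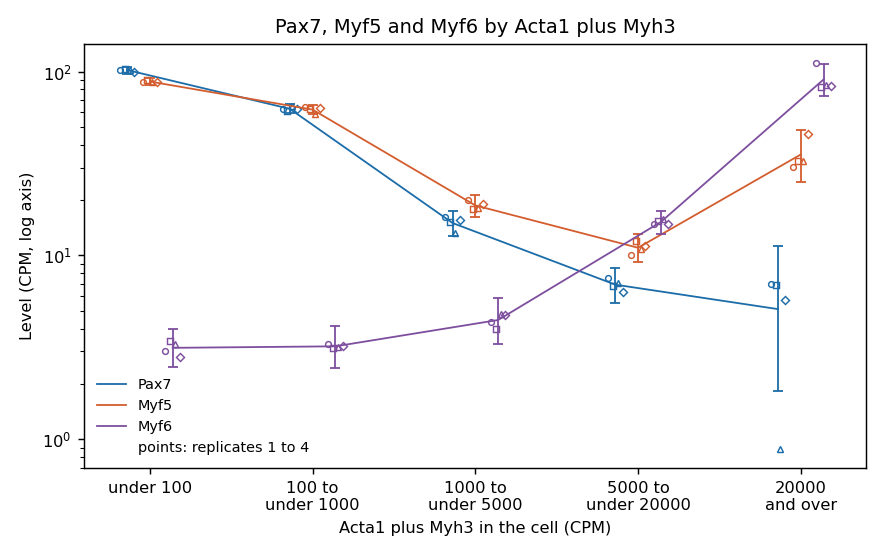
Level of Pax7, Myf5 and Myf6 (CPM, log axis) in 5 bins of Acta1 plus Myh3. Bars are 95% counting intervals and open symbols the 4 files; Myf5 is at 11 CPM in the fourth bin and at 35.4 CPM in the last, where Myf6 is at 90.6 CPM and Pax7 at 5.10 CPM.

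Detection of Myf5 was then compared with that of Myf6. Among 982 thinned cells with 5000 CPM or more of Acta1 plus Myh3, Myf5 was seen over the files in 30.2% of the 182 cells with Myf6 (23.6 to 37.5) and 9% of the 800 without (7.11 to 11.2), an odds ratio of 4.38 (2.87 to 6.63). These cells pool the last 2 bins, between which both genes differ, and in the 80 thinned cells of the last bin alone the odds ratio was 2.58 with an interval that spans 1 (0.868 to 7.86). Both genes also differed with Myog. In the last bin Myf6 was at 161 CPM from 500 to under 2000 CPM of Myog, 65.5 from 2000 to under 5000 and 18.9 above. Myf5 was at 46.0, 34.7 and 6.33 CPM in the same cells. Neither odds ratio was taken within Myog bins, and the part of Myog in them was not tested. Read over the files in the same way, the 1834 thinned cells under 100 CPM of Acta1 plus Myh3 gave 1.79 (1.07 to 3.11). That interval overlaps the one around 4.38. Read per file, and so at lower depth, the odds ratio over all cells was 1.11 (0.739 to 1.67). Within strata of Myog and Mki67 plus Top2a it was 1.60 (1.03 to 2.50) per file. For Pax7 with Myf6 the stratified value was 0.828 (0.472 to 1.44). Transcription that runs on from Myf6 through the 6718 bases to Myf5 would also be counted on this strand, and its part was not tested.

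Across 18 crossed bins of Myog and Mki67 plus Top2a with at least 20 cells, the genes whose log2 levels were most like those of Pax7 were Fbn1, fibrillin 1 (r = 0.992), Nrp2, Fmnl3, Tusc3 and Dpysl3. For Myf5 they were Tsc22d1 (r = 0.995), Uhrf1bp1l, Capn2, Nrn1 and Ptgs1, and for Pax3 Meis1 (r = 0.951), Pik3c2a, Arhgap31, Fstl1 and Rhoj. Pax7 correlated with Myf5 at 0.918 and with Pax3 at 0.922, and Pax3 with Myf5 at 0.878. These are descriptions over bins that share libraries and a common Myog trend: of 12894 genes compared, 3.62% reached 0.9 with Pax7, 3.23% with Myf5 and 1.26% with Pax3.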

How the data were processed

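Per the labels' protocols, RNA of sorted cells was prepared with the 10x Genomics 3-prime v3.1 chemistry. Each deposited matrix holds unnormalised counts of UMIs for every gene in every barcode; its header, per the file headers, gives Cell Ranger 7.1.0, while the submitters' processing notes name Cell Ranger 3.1.0 and the builds mm10 and GRCm39. The intron setting, annotation and barcode rule are not given in the sources used here. Of 5985 barcodes, 5944 were in all 4 files and 5481 were kept. Scrublet marked 0 of 5481 cells, too few to be taken as a working call, so doublets were not removed and their number is unknown. Counts were summed over cells and scaled to CPM per file, then averaged over files. Detection used cells thinned to 5000 UMIs. Intervals (95%) are exact Poisson for levels, Clopper-Pearson for shares, gamma-based for standardised levels and Robins-Breslow-Greenland for pooled odds ratios. They cover counting error in 1 file only, except for Myf5 with Myf6 in cells binned by Acta1 plus Myh3. There detection was taken over the 4 files together, with exact conditional intervals for the odds ratios. UMIs of repeat libraries of the same cells are not independent cells, and no p-value was computed.

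For classes of cells, CPM of thinned counts was averaged over strata of 5 Myog and 4 Mki67 plus Top2a bins with at least 5 cells of each class. Genes needed 50 counts in every file. The named genes are the 8 highest and 8 lowest of each contrast with the same direction in every file, members left out, the 5 most correlated with each member, and examples from fixed gene lists. The members and lists were chosen with earlier results of these data known, and the Pax3 contrast and the Acta1 plus Myh3 bins were added after seeing the data. Coordinates come from GENCODE (GRCm38), which matched 99.6% of the 32285 gene IDs. The contrast script was tested on simulated data. Python 3.11.15, NumPy 2.4.6, SciPy 1.17.1, pandas 2.3.3, scanpy 1.11.5 and matplotlib 3.10.9 were used.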

Additional observations from a re-analysis of the deposited data

Results flagged for a closer look

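Among 47 values with 4 files each, 4 had 1 file apart from the other 3, where chance gives about 1 in 20. Myf5 over all kept cells was 52.8 CPM in replicate 3 and 54.5 to 54.7 CPM in the others. Pax7 in cells under 50 CPM of Myog was 110 CPM in replicate 4 and 116 to 117 CPM in the others. Pax7 from 500 to under 2000 CPM of Myog was 37.0 CPM in replicate 1 and 34.9 to 35.2 CPM in the others. Pax3 in cells under 50 CPM of Mki67 plus Top2a was 4.87 CPM in replicate 2 and 4.15 to 4.20 CPM in the others.

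The 463 barcodes that did not pass the cell filters, with a median of 1207 UMIs and 40.9% mitochondrial counts, also held the 3 transcripts. Per 1000000 UMIs without mitochondrial genes, Pax7 was at 159 (127 to 196) in them and 59.3 in kept cells. Myf5 was lower there, at 20.4 (10.2 to 36.4) against 56.2, and Pax3 was at 8.80 (2.75 to 21.0, from 4.75 UMIs per file) against 6.58. These barcodes entered no comparison.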

How the results depend on the processing

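Of 277 recomputed main values, 214 stayed within the spread and 63 moved, and of 1176 values of single genes and bins 1088 stayed, 84 moved and 4 changed sign. No paired analysis was possible because every file belongs to 1 group. Leaving out each replicate gave Pax7 56.9 to 57.4, Pax3 6.30 to 6.45 and Myf5 54.0 to 54.6 CPM, and an odds ratio of 2.41 to 2.54. The genes lower with Myf5 alone than with neither went from 110 to between 143 and 207, highest without replicate 4. The same direction in every file is easier to meet with fewer files, and the classes were redrawn from the files left. Gene counts with a replicate left out, or with classes and counts from different files, are therefore not on equal terms with the main counts. Pax7 was 59.3 CPM without cells poor in Malat1. Scaling without mitochondrial UMIs gave 59.2 for Pax7 and 56.2 for Myf5.

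Detection followed depth. For Pax7, Pax3 and Myf5 the shares were 14.1%, 1.70% and 13.4% at 3000 UMIs, 26.8%, 4.24% and 26.1% at 8000, 34.6%, 5.73% and 33.6% without thinning, and 6.09%, 0.269% and 5.08% from at least 2 UMIs. The Myf5 difference was then 11.1, 20.4, 31.2 and 7.50 points, the odds ratio without thinning 3.98, and the observed to expected ratio 2.38 from 2 UMIs. Within strata the odds ratio was 1.16 for both measures, 1.17 for Myog, 2.07 for Mki67 plus Top2a and 1.14 for deciles and quartiles. The Pax7 log2 ratio between proliferation bins was 1.46 from CPM averaged per cell and 1.50 with quantile bins, where the Myf5 log2 ratio between Myog bins was -4.10.

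Gene counts moved most. Between Pax7 alone and Myf5 alone they were 946 higher and 214 lower without standardisation, 282 and 164 with median-ratio scaling, 808 and 157 from 20 counts and 303 and 56 from 100. From 1 UMI 291 were higher, and 60 were lower with stricter cell filters. Against neither, Pax7 alone gave 3230 and 1187 without standardisation, 591 and 264 with median-ratio scaling, 553 and 165 with strata split by Malat1, 573 higher without cells poor in Malat1 and 489 higher from 1 UMI. Its lower genes numbered 161 without the deepest cells, 196 without the highest Scrublet scores and 215 with classes and counts from different files. Myf5 alone against neither gave 1916 and 1051 without standardisation, 325 and 333 with different files, 75 and 49 from 1 UMI, 252 and 210 from 3 UMIs, 267 and 192 from 20 counts, and 91 and 54 from 100. The log2 ratio changed sign for Kremen2 (0.06, different files), Cdkn1c (-0.85, 3 UMIs), Myot (-0.06, no standardisation) and Myh8 (0.96, without cells of 5000 CPM or more of Acta1 plus Myh3). Of the 16 genes named per contrast, 3 to 16 were named again, with the 16 from median-ratio scaling. With 1 replicate left out it was 3 to 11. With classes and counts from different files it was 4, 4 and 5, while 15 or 16 kept their direction. The causes were not tested.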
